A study of Mus musculus with 18 samples.

Results

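The genes described here are 40 genes of the cell cycle, chosen by name for their part in DNA replication and mitosis. They were chosen with earlier results of these data known, among 35150 genes whose transcript values could be summed. They were measured in pieces of skin and muscle punched from the rostral whisker pad of 9 mice. On the right, the pad was denervated by cutting 2 branches of the facial nerve, the buccal and the superior marginal. The left pad of the same mouse served as sham control, with an incision that was closed again without a nerve lesion. Tissue was taken 1, 3, and 7 days after the lesion from 3 mice each, which gives 18 samples in 9 pairs and 3 samples per day and side. Since every lesion was on the right, effects of lesion and of side cannot be told apart. Each mouse was killed at 1 day only, so days were compared between different mice. The study reports that both male and female mice were used and that the mice for RNA sequencing spanned a range of ages. The strain of these mice is not given in the sources used here. Every biopsy held many cell types at once, and fewer cycling cells and less of these RNAs per cell cannot be told apart in such tissue.

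A dividing cell first licenses its replication origins, then copies its DNA, and then segregates the chromosomes on a spindle. The genes for these steps are transcribed in waves: E2F factors drive the genes of DNA replication, while the genes of mitosis peak later under factors that include Foxm1. In skin, dividing cells sit mainly in the basal epidermis and in the matrix of growing hair follicles, and in muscle the satellite cells can reenter the cycle after injury.

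The values are TPM, transcript abundances scaled for transcript length and to a common total, which the authors also normalized between samples. The depth estimated from the steps in the values was 10.3 to 32.0 M reads per sample with a median of 14.2 M. At that depth a member had a median of 292 reads in the median sample, and the fewest reads of any member in any sample were 41.6. All 40 members had enough signal to be tested in every comparison. Averaged over the 18 samples, the highest level was that of Pcna, the sliding clamp of the replication fork, at 66.1 TPM, followed by Top2a, the topoisomerase that untangles DNA, at 38.5 TPM and the helicase subunit Mcm7 at 36.7 TPM. The lowest levels were those of the origin-licensing factor Cdc6 at 2.64 TPM, the checkpoint kinase Bub1 at 2.57 TPM, and the spindle motor Kif11 at 2.30 TPM. For some members much of the summed value lay in transcripts that are not annotated as protein coding. Only 11.3% of the Gins2 value, 19.5% of Kif23, 24.0% of Top2a, and 24.6% of Cenpe lay in protein-coding transcripts, and Cenpa was also low, whereas Mcm4, Cdc45, Ccnb2, Kif11, and Mki67 had all of theirs there.

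Many of the 40 genes were low or high in the same samples, as the map of the members in each sample shows. The sham sample of day 3 mouse 1 was the lowest of the 18 samples for 17 members and among the lowest 3 for 31 members. The denervated sample of the same mouse was among the lowest 3 for 25 members. The sham sample of day 7 mouse 2 was the lowest for 11 members. At the other end, the sham sample of day 7 mouse 1 was the highest for 14 members, and the denervated sample of day 1 mouse 3 and the sham sample of day 1 mouse 1 were the highest for 10 members each. Low and high samples were thus found on both sides. The members did not move alike in every sample. In the denervated sample of day 7 mouse 2, the origin and helicase members had a median of -0.40 (log2, relative to the mean of each gene). The kinetochore and spindle members had a median of 0.21 there.

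**Figure D1:**
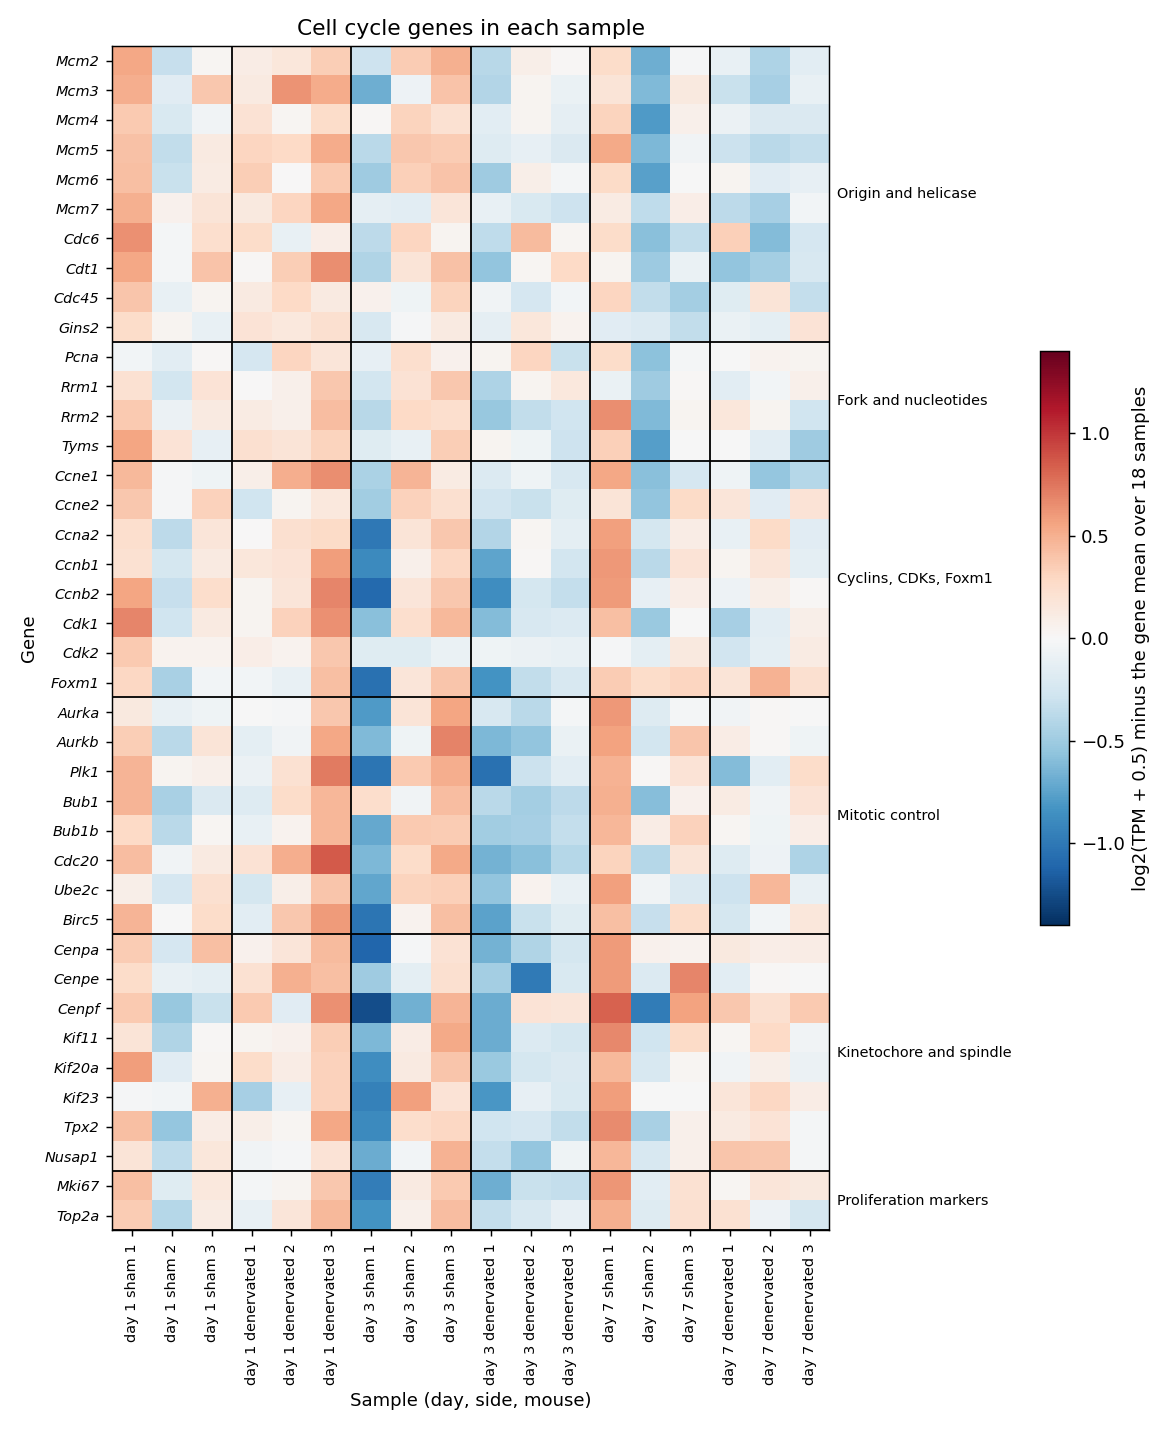
Each row is 1 of the 40 genes and each column 1 of the 18 samples, and the colour is log2(TPM + 0.5) minus the mean of that gene over all samples. The columns of day 3 mouse 1 are mostly blue on both sides, and the sham column of day 7 mouse 1 is mostly red.

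The effect of the lesion was tested as denervated minus sham on the log2(TPM + 0.5) scale (limma), with Benjamini-Hochberg adjustment over all genes tested and a threshold of 0.05. Over all days, 0 of 40 members passed, and 0 had an unadjusted p under 0.05. Of all 14757 genes, 457 passed, or 3.1%. The median difference of the members was -0.07 (log2) against 0.01 over all genes, and 33 of the 40 were below 0. The single members ran from -0.25 for Plk1, the kinase that starts spindle assembly, to 0.33 for Cenpf, a kinetochore protein. The 95% intervals of the 40 differences together reached from -0.69 to 0.87, so a change of that size in a single member was not always detectable with 9 mice. A fit that pairs the 2 samples of each mouse (mouse as block) gave 0 members as well.

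At day 1, 0 of 40 members passed (limma, Benjamini-Hochberg adjustment), and 0 had an unadjusted p under 0.05. Across all genes 0% passed and 634 genes had an unadjusted p under 0.05. Here 36 members were above 0 on the denervated side with a median of 0.13. At day 3, 0 members passed where 1.45% of all genes did, and 36 members were below 0 with a median of -0.22. At day 7, 0 members passed where 1.53% of all genes did, and 29 members were below 0 with a median of -0.11.

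Without the mouse as a block, the only member with an unadjusted p under 0.05 at any day was Bub1 at day 3. Of all genes, 14.7% were under 0.05 at day 3 in that fit. Bub1 is the kinase that holds back the separation of chromosomes until all are attached. It measured 3.03, 2.39, and 3.54 TPM in the sham samples of day 3 mice 1, 2, and 3, and 1.80, 1.64, and 1.81 TPM in their denervated samples. Each denervated sample was below each sham sample, which no other member showed at day 3, where 9.82% of all genes did. The difference was -0.62 (SE 0.18) with an unadjusted p of 0.0134, and the adjusted p from limma was 0.198. With the block, the unadjusted limma p at day 3 was under 0.05 for Bub1 (0.0188), Rrm2 (0.0202), Cdc20 (0.0328), Mcm4 (0.0430), and Cdk1 (0.0492). All of these were lower on the denervated side, and none passed adjustment, with the lowest adjusted p at 0.181 for Bub1. The share of all genes under 0.05 with the block is not given here, and without the block it was 14.7%. The members are therefore not shown to be under 0.05 more often than other genes.

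The direction of the side difference changed from mouse to mouse at the same day, and within a mouse 28 to 40 of the 40 members shared it. In day 1 mouse 1, 40 of 40 members were lower on the denervated side with a median of -0.33. In day 1 mouse 2 and day 1 mouse 3, 37 members each were higher, with medians of 0.37 and 0.33. The 3 mice of day 1 therefore lay on both sides of 0.

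At day 3 the median difference was 0.15 in mouse 1, -0.37 in mouse 2, and -0.51 in mouse 3. Members were lower on the denervated side in 12, 33, and 40 of 40 cases. Mouse 1 differed from the other two, and its sham sample was the low one named above. There were 12 members that were lower in all 3 mice: Mcm2, Mcm4, Cdt1, Cdc45, Rrm1, Rrm2, Cdk1, Aurkb, Plk1, Bub1, Cdc20, and Kif11. Of all 14757 genes, 22.1% were lower in all 3 mice of day 3.

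At day 7 the medians were -0.48, 0.30, and -0.11, and 38, 4, and 28 members were lower on the denervated side in mice 1, 2, and 3. Only Mcm7 and Bub1b were lower in all 3 mice, and only Gins2 was higher in all 3, where 17% of all genes were lower and 24.7% higher in all 3 mice. The median over all 14757 genes was between -0.03 and 0.07 in every mouse, so the genes as a whole did not shift with the members. At days 1 and 7 the median difference of the members rested on single mice. Without day 1 mouse 1 it was 0.33, and without day 1 mouse 2 it was -0.01. Without day 7 mouse 1 it was 0.10, and without day 7 mouse 2 it was -0.33. For day 3 the median without mouse 1 was further below 0, at -0.46, and the medians without mouse 2 or mouse 3 are not given here.

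**Figure D2:**
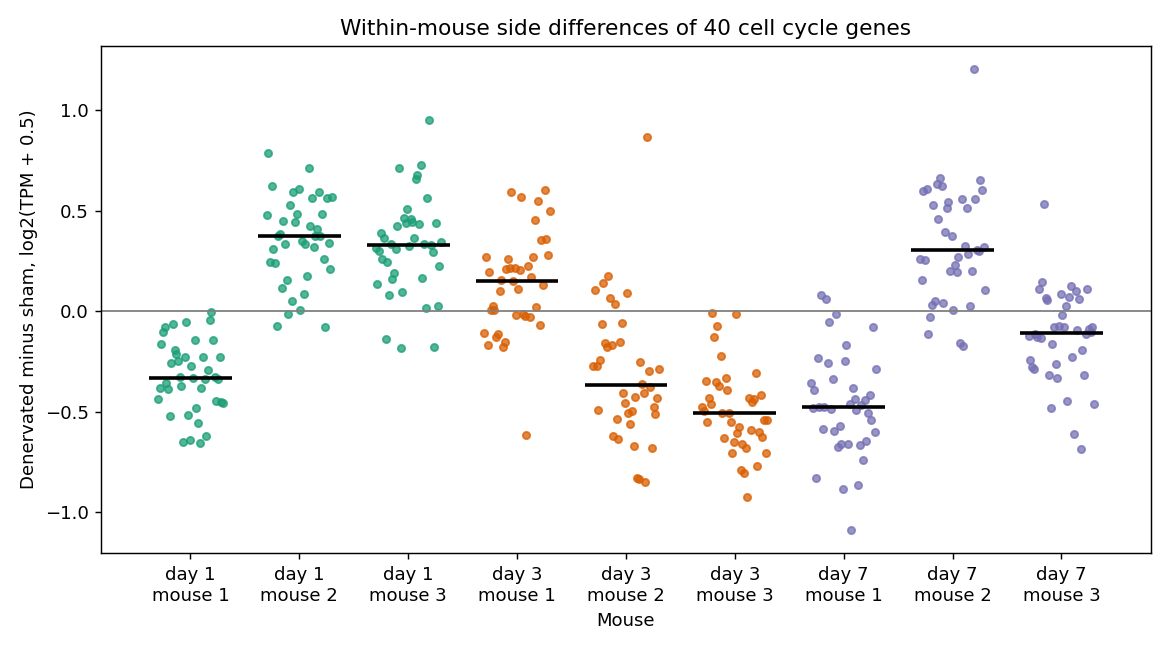
Each point is the denervated minus sham difference of 1 of the 40 genes in 1 mouse on the log2(TPM + 0.5) scale, black bars are the medians, and colours mark the day. The medians run from -0.51 to 0.37, and mice of each day lie on both sides of 0.

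The proliferation marker Mki67, a protein that coats mitotic chromosomes, shows the same picture in single samples. At day 1 it measured 13.3, 8.61, and 10.9 TPM in sham and 9.58, 10.03, and 12.8 TPM in denervated samples. At day 3 it measured 4.76, 10.7, and 12.8 TPM in sham and 5.89, 7.81, and 7.65 TPM in denervated samples. At day 7 it measured 15.3, 8.76, and 11.4 TPM in sham and 9.93, 11.1, and 10.8 TPM in denervated samples. The sides overlapped at every day, and the sham samples were spread more widely than the denervated samples. Over the 9 mice Mki67 was lower on the denervated side in 5 and higher in 4.

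On the denervated side, the day 3 samples were lower than the day 1 samples for the cell cycle genes. All 40 members were below 0, with a median of -0.51 where the median of all genes was 0.03, and 9 members fell (limma, Benjamini-Hochberg adjustment). Among all genes 11.6% passed in this comparison, and 3.54% passed as lower. In 27 members all 3 samples of day 3 were below all 3 of day 1, which 15.2% of all genes showed. The largest fall was in Cdc20, which activates the complex that degrades cyclin B and securin at the start of anaphase. It measured 20.9, 26.0, and 33.2 TPM in the denervated samples of day 1 and 11.3, 11.9, and 13.6 TPM in those of day 3. The day 3 values were all below the day 1 values, with a difference of -1.07 (SE 0.17, limma adjusted p = 0.00886).

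Among the genes of DNA replication, 2 of 10 origin and helicase members fell. Mcm5 and Mcm7 are subunits of the ring-shaped helicase that unwinds DNA. Mcm5 measured 19.8, 19.3, and 23.0 TPM at day 1 and 13.9, 14.7, and 13.8 TPM at day 3. The groups were far apart relative to their spread, and the difference was -0.53 (SE 0.09, limma adjusted p = 0.0114). Mcm7 measured 39.8, 44.5, and 52.8 TPM at day 1 and 33.6, 31.1, and 29.3 TPM at day 3, a difference of -0.53 just inside the threshold (limma adjusted p = 0.0485). Mcm3 measured -0.58 with an adjusted p of 0.0616 and did not pass. Of the 4 fork and nucleotide members, Rrm2 fell. It is the subunit of ribonucleotide reductase that rises in S phase, and it measured 17.3, 16.7, and 21.7 TPM at day 1 and 10.8, 12.5, and 13.1 TPM at day 3 (difference -0.59, limma adjusted p = 0.0399). Pcna was at -0.07, with an interval from -0.48 to 0.34.

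Of the 8 cyclins, kinases, and Foxm1, the mitotic cyclin Ccnb2 fell. It measured 11.96, 13.1, and 19.0 TPM at day 1 and 6.13, 9.77, and 9.16 TPM at day 3, and the difference was -0.78 (SE 0.21, limma adjusted p = 0.0463). Its partner kinase Cdk1 was at -0.67 and the related Ccnb1 at -0.64, and neither passed (adjusted p = 0.0612 and 0.0757). Among the 8 kinetochore and spindle members 3 fell: Cenpa, the histone that marks centromeres, Cenpe, a motor that brings chromosomes to the spindle equator, and Kif20a, a motor of cell division. Cenpa measured 23.9, 25.7, and 31.1 TPM at day 1 and 14.2, 16.9, and 19.1 TPM at day 3 (difference -0.67, limma adjusted p = 0.0181). Cenpe measured 6.05, 7.45, and 7.06 TPM at day 1 and 3.56, 2.35, and 4.37 TPM at day 3 (difference -0.93, limma adjusted p = 0.0195). Both stood apart without overlap. Kif20a went from 6.63 ± 0.54 TPM to 4.36 ± 0.55 TPM (SD, n = 3; limma adjusted p = 0.0264), and Mki67 from 10.8 ± 1.74 TPM to 7.11 ± 1.06 TPM (limma adjusted p = 0.0407).

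**Figure D3:**
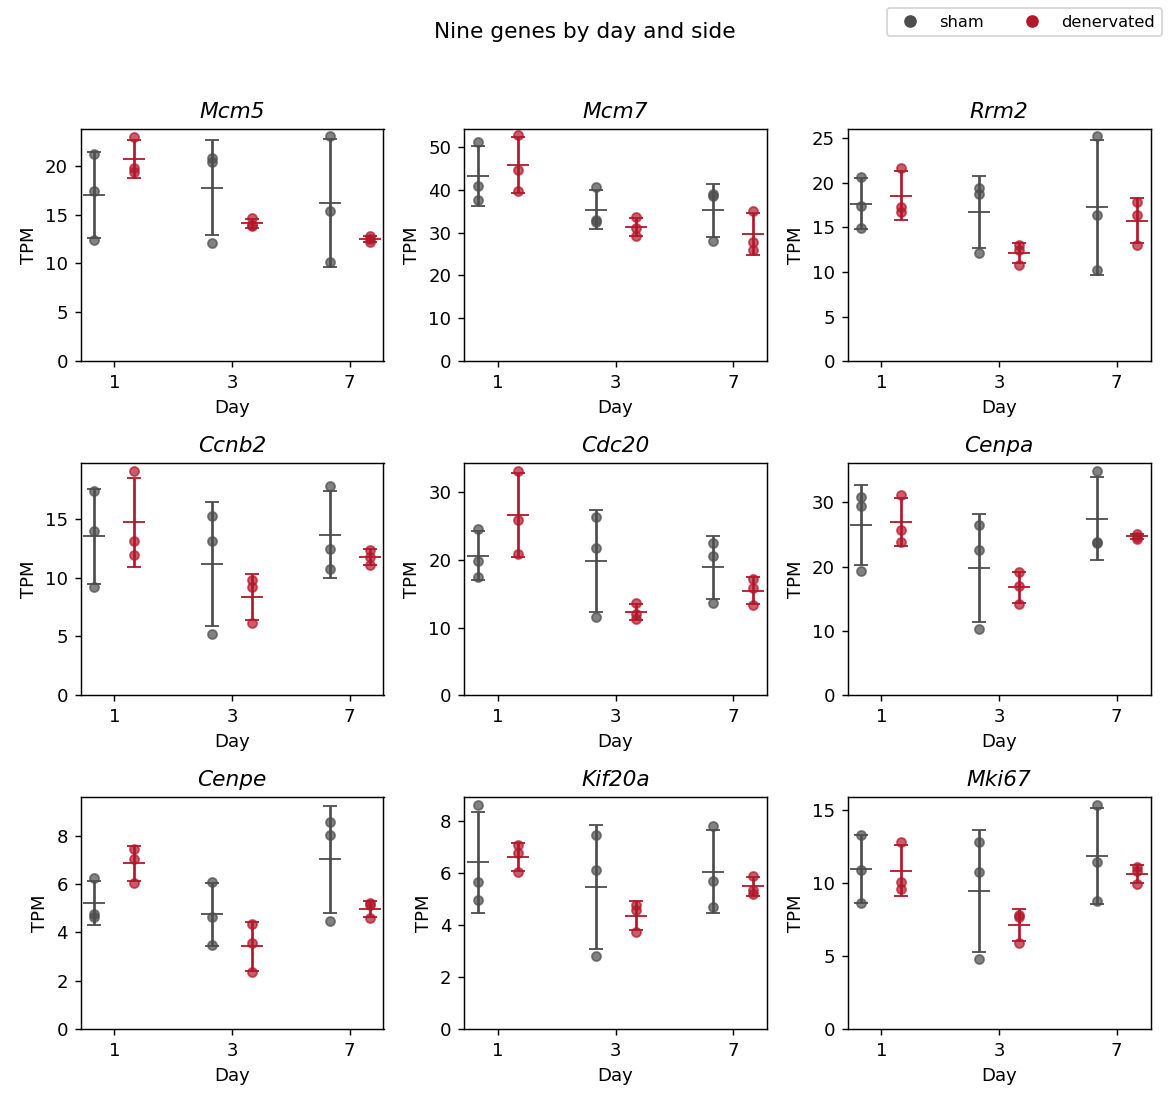
TPM of the 9 genes that fell on the denervated side between days 1 and 3, by day (horizontal axis) and side (grey sham, red denervated), with single samples as points and the mean and SD of 3 samples as bars. The red points of day 3 lie below those of day 1 in each panel, while the grey points overlap between days.

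These calls depended on the settings. When single mice were left out, between 2 and 13 members passed, with 13, 4, and 2 without day 1 mice 1, 2, and 3, and 4, 3, and 4 without day 3 mice 1, 2, and 3. With all 18 samples in 1 fit 2 passed. Each sample was also rescaled to 7 basal keratinocyte markers, an alternative chosen after seeing the data. The median of all genes then moved to 0.29 and that of the members to -0.26, and 1 passed, which was Cdc20. With protein-coding transcripts only, also chosen after seeing the data, 15 passed, of which 14 were lower and 1, Gins2, was higher. Cdc20 stayed past the threshold under each alternative that was run.

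On the sham side the same comparison gave 0 called members (limma), 1 with an unadjusted p under 0.05, and a median of -0.13 with 31 members below 0. Of all genes 0.0818% passed, and 10.9% had an unadjusted p under 0.05. The member under 0.05 was the kinase Cdk2 at -0.30. It was also the 1 member whose 3 samples of day 3 were all below those of day 1, as 6.88% of all genes were. The low sham sample of day 3 mouse 1 weighed on this: without that mouse the median was 0.19. The intervals on the sham side were wide, for Cdc20 from -0.82 to 0.58. Whether the sides differ in their change from day 1 to day 3 was tested in 1 fit of all 18 samples, and 0 members passed (limma), where 0.122% of all genes did. With an unadjusted p under 0.05 there were 3, namely Cdc20 (-0.95, adjusted p = 0.462), Bub1 (-0.86, adjusted p = 0.527), and Cenpe (-0.79, adjusted p = 0.504). A difference between the sides in their change over these days was therefore not shown.

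**Figure D4:**
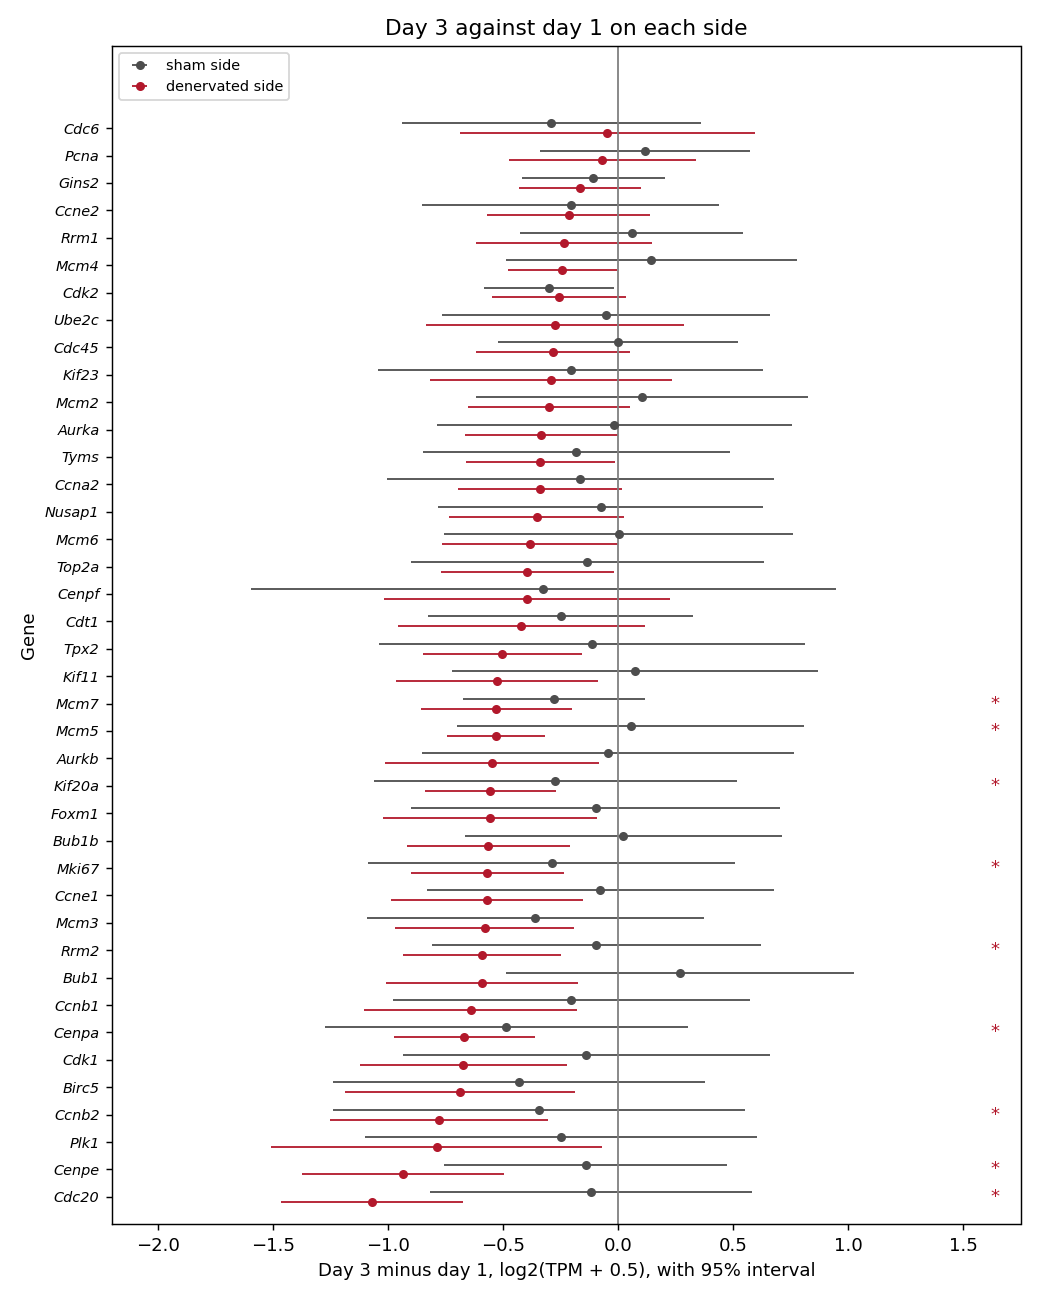
Day 3 minus day 1 differences of the 40 genes in log2(TPM + 0.5) with 95% intervals, for the denervated side in red and the sham side in grey, with a star at the 9 genes that passed on the denervated side. The red points are all below 0, and most grey intervals include 0 and overlap the red ones.

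Promoter sequences were taken from RefSeq (build GRCm38.p6), which held 32 of the 40 members in 33 windows, each reaching from 250 bases before the start of transcription to 50 after it. The windows were searched on both strands for the word TTTGAA, the core of the cell cycle genes homology region found in promoters of mitosis genes, for CCAAT, and for the E2F words TTTCCCGC, TTTCGCGC, TTTGCCGC, and TTTGGCGC. TTTGAA was found in 45.5% of the member windows and in 17.9% of all 32851 promoters of that length, CCAAT in 81.8% and 37.4%, and an E2F word in 24.2% and 2.26%. By role, TTTGAA was in 5 of 7 windows of the mitotic control genes and 4 of 6 of the kinetochore and spindle genes, but in 2 of 9 of the origin and helicase genes. The E2F words were in 6 of 9 windows of the origin and helicase genes, 2 of 5 of the cyclins and kinases, and 0 of the 19 other windows. A word in a window is a description and does not show that a factor binds there. The windows of 6 genes that fell between days 1 and 3 were picked after their values were seen and are shown from 170 bases before to 30 bases after the start, so that a gene of replication can be set beside genes of mitosis, with the words in capitals.
Mcm5 (chr8:75109339-75109538, plus strand): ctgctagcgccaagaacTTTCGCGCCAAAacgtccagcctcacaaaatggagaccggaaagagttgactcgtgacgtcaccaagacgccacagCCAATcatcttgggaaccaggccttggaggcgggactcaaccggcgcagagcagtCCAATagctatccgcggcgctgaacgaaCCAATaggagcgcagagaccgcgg
Rrm2 (chr12:24708084-24708283, plus strand): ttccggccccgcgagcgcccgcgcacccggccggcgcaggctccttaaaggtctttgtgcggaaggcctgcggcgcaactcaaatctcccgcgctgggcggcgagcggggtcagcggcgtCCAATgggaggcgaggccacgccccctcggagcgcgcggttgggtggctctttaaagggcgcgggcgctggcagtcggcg
Ccnb2 (chr9:70421525-70421724, minus strand): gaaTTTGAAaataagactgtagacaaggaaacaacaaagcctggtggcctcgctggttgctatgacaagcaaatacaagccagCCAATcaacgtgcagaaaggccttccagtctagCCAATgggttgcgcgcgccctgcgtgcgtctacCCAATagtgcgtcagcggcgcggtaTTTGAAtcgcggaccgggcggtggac
Cdc20 (chr4:118437314-118437513, minus strand): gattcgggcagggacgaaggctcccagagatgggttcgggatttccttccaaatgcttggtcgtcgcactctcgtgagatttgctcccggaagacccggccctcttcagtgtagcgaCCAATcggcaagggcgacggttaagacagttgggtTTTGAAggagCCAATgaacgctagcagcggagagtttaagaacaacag
Cenpa (chr5:30666716-30666915, plus strand): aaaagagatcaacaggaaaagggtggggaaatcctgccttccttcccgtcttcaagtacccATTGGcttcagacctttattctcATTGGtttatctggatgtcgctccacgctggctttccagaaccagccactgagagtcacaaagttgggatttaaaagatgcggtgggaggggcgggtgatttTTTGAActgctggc
Mki67 (chr7:135716350-135716549, minus strand): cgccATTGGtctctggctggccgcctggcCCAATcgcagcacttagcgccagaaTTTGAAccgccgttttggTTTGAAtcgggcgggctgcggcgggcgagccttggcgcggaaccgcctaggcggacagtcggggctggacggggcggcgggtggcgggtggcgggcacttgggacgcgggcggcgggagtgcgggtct
In these windows Mcm5 holds 2 overlapping E2F words, CCAAT, and no TTTGAA, Rrm2 holds CCAAT alone, and Ccnb2, Cdc20, Cenpa, and Mki67 hold both TTTGAA and CCAAT.

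From day 3 to day 7, 0 members passed on the denervated side (limma), and 13 had an unadjusted p under 0.05, all higher at day 7. Of all genes 0.211% passed, and 14% had an unadjusted p under 0.05. All 8 kinetochore and spindle members and all 8 mitotic control members were above 0, with medians of 0.49 and 0.36. The 10 origin and helicase members had a median of -0.11, and 8 of them were below 0. Mki67 was at 0.55 with an unadjusted p of 0.00482 and an adjusted p of 0.181. On the sham side 0 members passed and 0 had an unadjusted p under 0.05, where 0.0136% of all genes passed, and the 2 groups of genes again lay on either side of 0, with medians of 0.23 for kinetochore and spindle and -0.23 for origin and helicase members. The side differences did not change detectably from day 3 to day 7: 0 members passed and 0 had an unadjusted p under 0.05, while 0% of all genes passed.

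Between days 1 and 7 on the denervated side, 5 members fell (limma): Mcm3, Mcm5, Mcm7, Ccne1, and Cdc20. Ccne1 is the cyclin of entry into S phase. In all 21.3% of genes passed this comparison and 7.65% passed as lower. Of the members 5 of 40 passed, and without day 1 mouse 2, day 1 mouse 3, or day 7 mouse 2 the count was 2, 1, and 2. In 11 members all 3 samples of day 7 were below all 3 of day 1, as in 16.5% of all genes. Mcm5 measured 12.8, 12.2, and 12.5 TPM at day 7, against 19.8, 19.3, and 23.0 TPM at day 1, a difference of -0.70 (limma adjusted p = 0.00231). Mki67, at 9.93, 11.1, and 10.8 TPM, was back in the range of day 1. Of the origin and helicase members all 10 were below 0, with a median of -0.37, while the kinetochore and spindle members had a median of -0.09.

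The sign of these differences depended on the scale. After rescaling to the 7 basal keratinocyte markers, whose sums were lower at day 7, the median of all genes moved from 0.02 to 0.54, and 48.6% of all genes passed as higher. The median of the members moved with it from -0.24 to 0.28. On that scale 6 members passed as higher, namely Pcna, Ccne2, Foxm1, Kif23, Nusap1, and Mki67, and 0 of the 5 named above passed. Such a rescaling moves all genes of a sample alike, so it bears on the sign of a change and not on the members relative to other genes. On the sham side 0 members passed between days 1 and 7 (limma), 0 had an unadjusted p under 0.05, and 0.00682% of all genes passed. For the difference between the sides over these days 0 members passed, 1 had an unadjusted p under 0.05 (Cenpe, -0.78, adjusted p = 0.684), and 0.163% of all genes passed. An unadjusted p under 0.05 was found for 7.14% of all genes.

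Marker genes of the cell types in the biopsies moved over the same days. The summed level of 8 skeletal muscle markers was 5875 to 12345 TPM in the denervated samples of day 1, 14682 to 16381 TPM at day 3, and 18717 to 20621 TPM at day 7. In the sham samples it was 3947 to 20756 TPM at day 1, the widest range of any group, and 19017 to 23271 TPM at day 7. The 7 basal keratinocyte markers went the other way on the denervated side, with 6304 to 6890 TPM at day 1, 5102 to 6164 TPM at day 3, and 4227 to 5022 TPM at day 7. Each denervated sample of day 3 was thus below each of day 1, a pattern that 15.2% of all genes showed between these groups. On the sham side these sums were 5983 to 8438 TPM at day 1, 4974 to 7166 TPM at day 3, and 4864 to 5128 TPM at day 7. The 6 hair matrix markers summed to 73.3 to 156 TPM in the denervated samples of day 1 and 47.2 to 65.8 TPM in those of day 3, against 78.1 to 117 TPM in the sham samples of day 3. In the denervated samples the means of Msx1, Msx2, Lef1, Hoxc13, and Foxn1 were lower at day 3 than at day 1. Shh of the same list went the other way, with means of 2.10 TPM at day 1 and 2.39 TPM at day 3. Its mean in the sham samples of day 3 was 1.81 TPM. The sum therefore does not speak for each marker. No marker of these lists was at 0 in all 3 samples of a group. The part of tissue composition in the falls of the cell cycle genes was not tested.

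The summed satellite cell markers did not follow the cell cycle genes. Their 4 genes summed to 6.82 to 8.42 TPM in the sham samples of day 3 and to 52.9 to 135 TPM in the denervated samples. Most of this was Myod1, which myonuclei also express after denervation, at 3.58, 5.58, and 4.58 TPM in sham and 42.8, 117, and 77.7 TPM in denervated samples (difference 3.88, limma adjusted p = 0.00722). Pax7, a marker gene of satellite cells, was below 0.3 TPM in all 18 samples. Whether satellite cells changed in number cannot be told from these values.

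**Figure D5:**
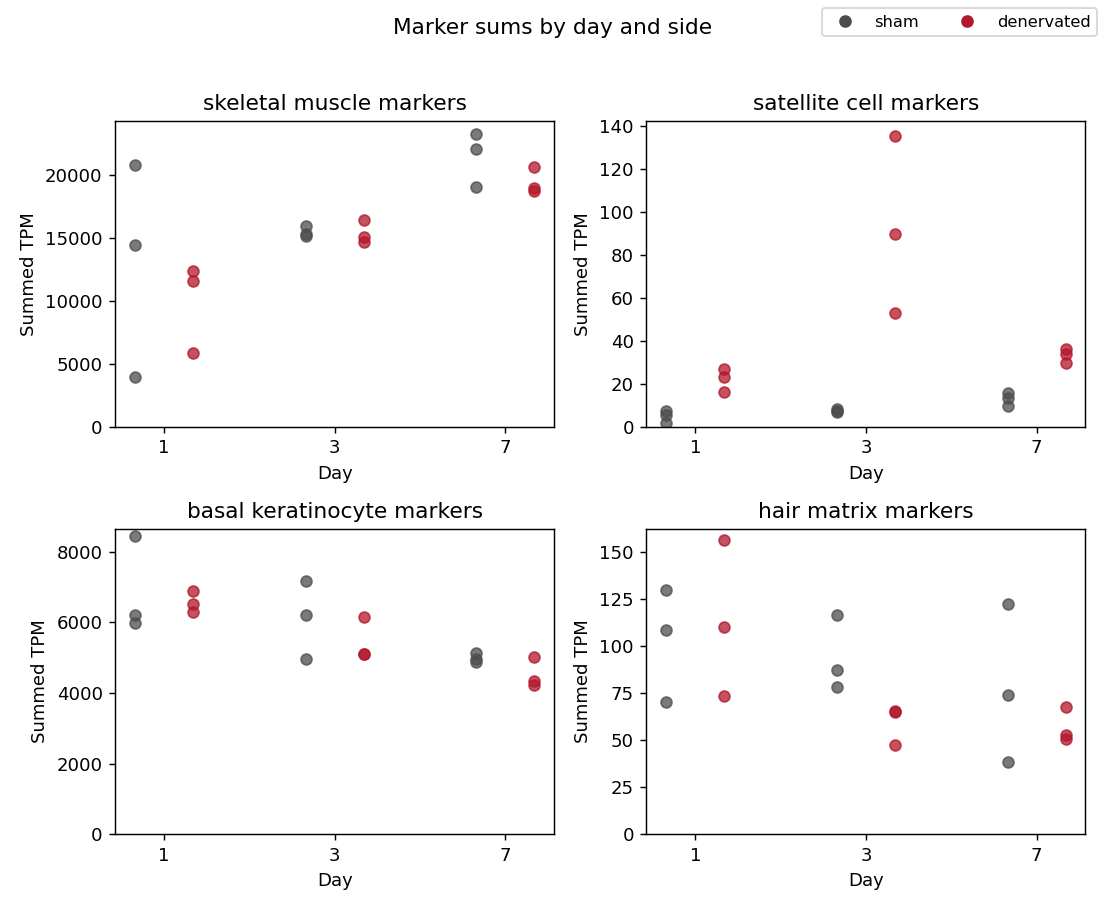
Summed TPM of the marker genes of 4 cell types (panels) by day and side, with 1 point per sample, grey for sham and red for denervated. Skeletal muscle sums of the denervated samples are higher at each later day, satellite cell sums are highest in the 3 denervated samples of day 3, and hair matrix sums of the denervated samples are lower at days 3 and 7 than at day 1.

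The wider cell cycle was described with 172 further genes in 9 lists, of which 171 could be tested over all days. Of these, 6 rose on the denervated side (limma, Benjamini-Hochberg adjustment) and 0 fell, while the median was -0.06. The share of all genes that passed was 3.1%, so these lists passed about as often as genes in general. With the mouse as a block the p53 target Sesn1 also passed, as lower (-0.41, adjusted p = 0.00426, and 0.0762 without the block). No gene of the lists for origins and forks (35 genes), nucleotides and chromatin (15), the G2/M checkpoint (24), kinetochores and condensin (27), or spindle and cytokinesis (26) passed. The 6 were the CDK inhibitor Cdkn1a (difference 0.56, adjusted p = 0.00245), the repressive E2F factor E2f4 (0.44, adjusted p = 0.0156), the antiproliferative gene Btg2 (0.48, adjusted p = 0.00296), the stress gene Gadd45a (2.59, adjusted p = 0.000213), the receptor Eda2r (1.77, adjusted p = 0.000205), and the nuclease Aen (0.23, adjusted p = 0.0446). All of them but E2f4 were on the list of p53 targets, of which 5 of 13 passed.

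Gadd45a can hold cells at G2/M and is also a gene of denervated muscle. It measured 38.3, 35.1, and 34.0 TPM in the sham samples of day 3 and 441, 523, and 336 TPM in the denervated samples. The sides were far apart at day 3 and again at day 7, where it measured 32.3, 47.3, and 32.5 TPM in sham and 314, 243, and 320 TPM in denervated samples. Cdkn1a measured 127, 112, and 119 TPM in the sham samples of day 3 and 145, 177, and 174 TPM in the denervated samples. At day 7 its values were 112, 102, and 89.6 TPM in sham and 221, 186, and 156 TPM in denervated samples. Each denervated sample was above each sham sample at both days, yet Cdkn1a passed at neither day alone without the mouse as a block, and with it at day 7 only (day 7 limma adjusted p = 0.0595, and 0.0190 with the block). At day 3 the adjusted p of Cdkn1a was 0.124, and 0.152 with the block. At day 3 alone and at day 7 alone, Gadd45a and Eda2r passed, and with the block the kinetochore gene Zwint also passed at day 3 (0.75, adjusted p = 0.0368). For E2f4 the adjusted p with the block was 0.0608, above the threshold. On the denervated side between days 1 and 3, 23 of 170 tested genes of these lists passed, 16 of them lower and 7 higher, where 11.6% of all genes passed and 3.54% passed as lower, with Kif2c (-0.84), Ckap2 (-0.83), and Fam83d (-0.66) of the spindle list among the lower ones.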

How the data were processed

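Tissue RNA of 18 samples was sequenced after an Illumina TruSeq preparation. The deposited signal values are TPM per transcript that the authors normalized between samples with Sleuth, with sums of 833186 to 1143839. Per the labels and the study's methods, bases were called with bcl2fastq 2.17.1.14, duplicate reads were removed, which can lower abundant transcripts, reads were trimmed, and Kallisto 0.43.1 assigned them to GRCm38 transcripts. The columns of 6 day 7 samples were matched by library number.

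Of 113194 transcripts, 111450 were found in GENCODE M21, and their values were summed per gene. Genes needed 1 TPM or more in 47% or more of a comparison's samples. limma 3.58.1 (R 4.3.3) was run with a variance trend on log2(TPM + 0.5), a scale that understates changes of low genes, and p-values were adjusted by Benjamini-Hochberg over all genes tested. The model over all days had terms for day and lesion. Single days were fitted on their 6 samples, and days were compared within the 9 samples of 1 side. Interactions used all 18 samples. Side comparisons were repeated with the mouse as a block, since the sides come from 1 animal. Residuals of the 2 sides correlated at 0.16 to 0.57 over all genes and at 0.23 to 0.64 over the members. Day comparisons on 1 side hold no pairs.

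Depth was estimated from low values of protein-coding transcripts of at least 2500 bases from genes with 1 transcript, of which 74.7% to 86.9% lay within 0.1 of a whole number of reads (20% if spread evenly). It is approximate: 3 versions were tried, and the settings were chosen after their output was seen. The members and lists were chosen with earlier results of these data known. Named were the members, each other cell cycle gene that passed between sides, and marker genes, while Kif2c, Ckap2, and Fam83d were picked after their values were seen. Tests were tried on simulated data. Alternatives varied the pseudocount, filter, scaling, transcripts, trend, samples fitted, block, and mice, and 2 were added after seeing the data. Python 3.11.15, numpy 2.4.6, pandas 2.3.3, and matplotlib 3.10.9 served for sums and plots.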

Additional observations from a re-analysis of the deposited data

How the results depend on the processing

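For the side comparisons, the comparisons of days on the sham side, days 3 and 7 on the denervated side, and the interactions, 0 members passed under each alternative that was run, the replicate block among them (0 members with the paired fit at each day and over all days). On the denervated side between days 1 and 3, 9 members passed. The count was 5 with any TPM above 0 as the filter, 3 with the transcript of the highest mean TPM, 2 with all 18 samples in 1 fit, 1 after rescaling to basal keratinocyte markers, and 15 with protein-coding transcripts only, of which 14 were lower. Leaving out single mice gave 2 to 13: 13 without day 1 mouse 1, 4 without day 1 mouse 2, 2 without day 1 mouse 3, and 4, 3, and 4 without day 3 mice 1, 2, and 3. Between days 1 and 7, 5 members passed. The count was 8 with median-of-ratios rescaling, 8 with equal sums, 8 with protein-coding transcripts, and 2 with all 18 samples in 1 fit, and 1 to 6 with single mice left out, with 2 without day 1 mouse 2, 1 without day 1 mouse 3, and 2 without day 7 mouse 2. It was 6 after rescaling to basal keratinocyte markers, all in the other direction, where the median of all genes moved by the construction of that scale from 0.02 to 0.54. The other causes were not tested. The 2 alternatives with keratinocyte markers and protein-coding transcripts were chosen after seeing the data. With 3 mice a day, 0 called members does not show that the sides are alike.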
